A study of Homo sapiens with 30 samples.

Results

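A549 cells, a line derived from a human lung adenocarcinoma, were compared between 4 and 7 days of exposure to GSK591, which inhibits PRMT5, an enzyme that methylates arginines in proteins. Their nascent RNA was counted by PRO-seq (precision run-on sequencing), in which engaged RNA polymerases extend their transcripts in permeabilised cells. The counts are thus meant to report ongoing transcription and not accumulated RNA. Whether accumulated RNA added to the counts of any gene was not tested. The comparison rests on 4 of the 30 libraries of the study, 2 at 4 days and 2 at 7 days (the samples titled 1 week), and all 22919 genes that passed a filter on low counts were tested. Both groups received GSK591 at 1 µM and no dexamethasone (Dex, a synthetic glucocorticoid). For reference, 2 untreated libraries, 2 libraries at 2 days of GSK591 and 2 libraries each at 4 and 7 days of MS023, which blocks the Type I enzymes of the same class and was used at 1 µM, are given beside them. Further reference libraries had GSK591 for 7 days and then Dex at 100 nM for 15 min or 3 h. The other groups, which share the fit and appear only in the plot of snRNA sums, had Dex alone for 15 min or 3 h, Dex together with GSK591 or MS023 for 3 h, MS023 for 2 days, or MS023 for 7 days and then Dex for 15 min or 3 h, at the same doses. All groups were in 0.01% DMSO, the untreated cells included, which the labels give as 15 min of vehicle. The study has 1 untreated group for every time, so the duration of GSK591 and the time in culture cannot be told apart. All values come from 1 cell line. Since the labels do not say that replicates came from separate cultures, p-values measure only the spread between these libraries, which may be technical.

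PRMT5, working with its partner WDR77, places symmetric dimethyl marks on arginines of histones and of RNA-binding proteins. Its best known substrates include the Sm proteins SNRPB, SNRPD1 and SNRPD3, which form a ring on the small nuclear RNAs (snRNAs) that carry out splicing. Type I enzymes such as PRMT1 place asymmetric dimethyl marks instead.

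Total counts were 10031609 and 10529388 in the 4 day libraries and 10251670 and 11969444 in the 7 day libraries. Mitochondrial genes took 69.5% and 70.3% of counts at 4 days and 73.7% and 78.7% at 7 days, the last being the highest share in the study. Counts on nuclear chromosomes were 3058032 and 3127194 at 4 days and 2696326 and 2553476 at 7 days. Values are given as counts-per-million (CPM) after TMM scaling, which sets the middle of all genes near 0 change; the median log2 fold change over all genes tested was 0.00. With total counts as the only scaling that median was -0.44, and with total nuclear counts -0.10, so a change below is a change relative to the bulk of genes. Paired CPM values are replicates 1 and 2, and a log2 change is given with its standard error from the fit. The epithelial keratins KRT8, KRT18 and KRT7 and the A549 enzymes AKR1B10, AKR1C1 and ALDH3A1 lay between 56.5 and 255 CPM in the 4 libraries. Other epithelial markers were lower: CDH1 stood at 4.30 to 5.92 CPM, EPCAM at 3.27 and 3.81 CPM at 4 days and 1.16 and 1.74 CPM at 7 days, and KRT19 is given below. Of the markers of other cell types, CD3E and PTPRC (leukocytes) had at most 3 counts per library, DCN (fibroblasts) at most 3 and CDH5 (endothelium) at most 3. Of the alveolar type 2 markers, the factor NKX2-1 had 1 count in each 4 day library and 0 at 7 days, while the surfactant genes SFTPB and SFTPC had 49 to 63 and 13 to 22 counts per library. COL1A1 stood at 2.98 to 6.16 CPM and CD14 at 3.89 to 5.82 CPM, with no order between the times.

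Between 4 and 7 days, 1901 of 22919 genes were called by the edgeR quasi-likelihood test at a Benjamini-Hochberg adjusted p under 0.05, which is 8.29% of the genes tested. Of these, 928 rose (4.05%) and 973 fell (4.25%). Both 7 day libraries lay above both 4 day libraries in 26.3% of genes and below them in 26.6%. The median log2 fold change was 0.83 among the rises and -0.73 among the falls. Protein-coding genes gave 678 rises and 772 falls among 14978 tested, and long intergenic RNAs 86 rises and 46 falls among 1698. By gene length, 6.19% of the protein-coding genes in the shortest length quartile rose against 3.68% in the longest, while 5.37% and 4.91% fell. Relative to untreated cells, the genes that rose had a median log2 change of -0.49 at 4 days and 0.41 at 7 days, and the genes that fell had 0.44 at 4 days and -0.30 at 7 days. These 3 comparisons share libraries, and the values are given side by side as descriptions. The count was 747 without replicate 1 of the 4 day group, 849 without its replicate 2, 1005 without replicate 1 of the 7 day group and 675 without its replicate 2. Total counts as the only scaling gave 3663 calls, of which 3.47% were rises. Total nuclear counts gave 1995, of which 26.8% were rises. The DESeq2 test gave 972. Only the groups compared gave 2925 of 18383 genes tested, and untreated with inhibitor-alone groups 2837 of 21236. Calls in a list under another setting are to be read beside these totals, since the share of all genes called moves as well.

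The genes that rose furthest were a mixed group. PSG4, a pregnancy-specific glycoprotein gene, was at 1.82 and 1.50 CPM at 4 days and 10.3 and 8.84 CPM at 7 days, a log2 change of 2.52 ± 0.33. JUN, the AP-1 subunit, went from 17.5 and 24.8 to 89.2 and 90.5 CPM (2.09 ± 0.13, adjusted p = 4.61e-17). Untreated cells had 49.9 and 57.3 CPM of JUN, so the 7 day libraries lay above untreated cells and the 4 day libraries below them. The libraries given Dex for 15 min after 7 days of GSK591, which are not part of the contrast, had 53.0 and 56.7 CPM, again above both 4 day libraries. DIO2, which activates thyroid hormone, rose from 5.19 and 4.81 to 20.5 and 18.2 CPM. ARC, an activity-regulated gene best known in neurons, rose from 2.40 and 2.21 to 7.32 and 9.11 CPM. XDH, which encodes xanthine dehydrogenase, rose from 2.59 and 2.51 to 9.65 and 7.91 CPM. DUSP8, a MAP kinase phosphatase, rose from 2.59 and 2.61 to 7.67 and 10.3 CPM. The ubiquitin ligase gene MARCH4 rose from 1.73 and 2.31 to 8.95 and 8.58 CPM. FAM222A and KIAA1755 completed the set with log2 changes of 1.77 ± 0.25 and 1.77 ± 0.30. In these genes both 7 day libraries exceeded both 4 day libraries, which the naming rule requires. MARCH4 and DIO2 overlap exons of another gene on the opposite strand, and since the use of strand in counting is not given, their counts are uncertain, as are those of GACAT2. Among other gene types the largest rises were AC103718.1 (2.15 ± 0.25), GACAT2 (2.01 ± 0.25) and IGFL1P1 (1.99 ± 0.24).

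**Figure D1:**
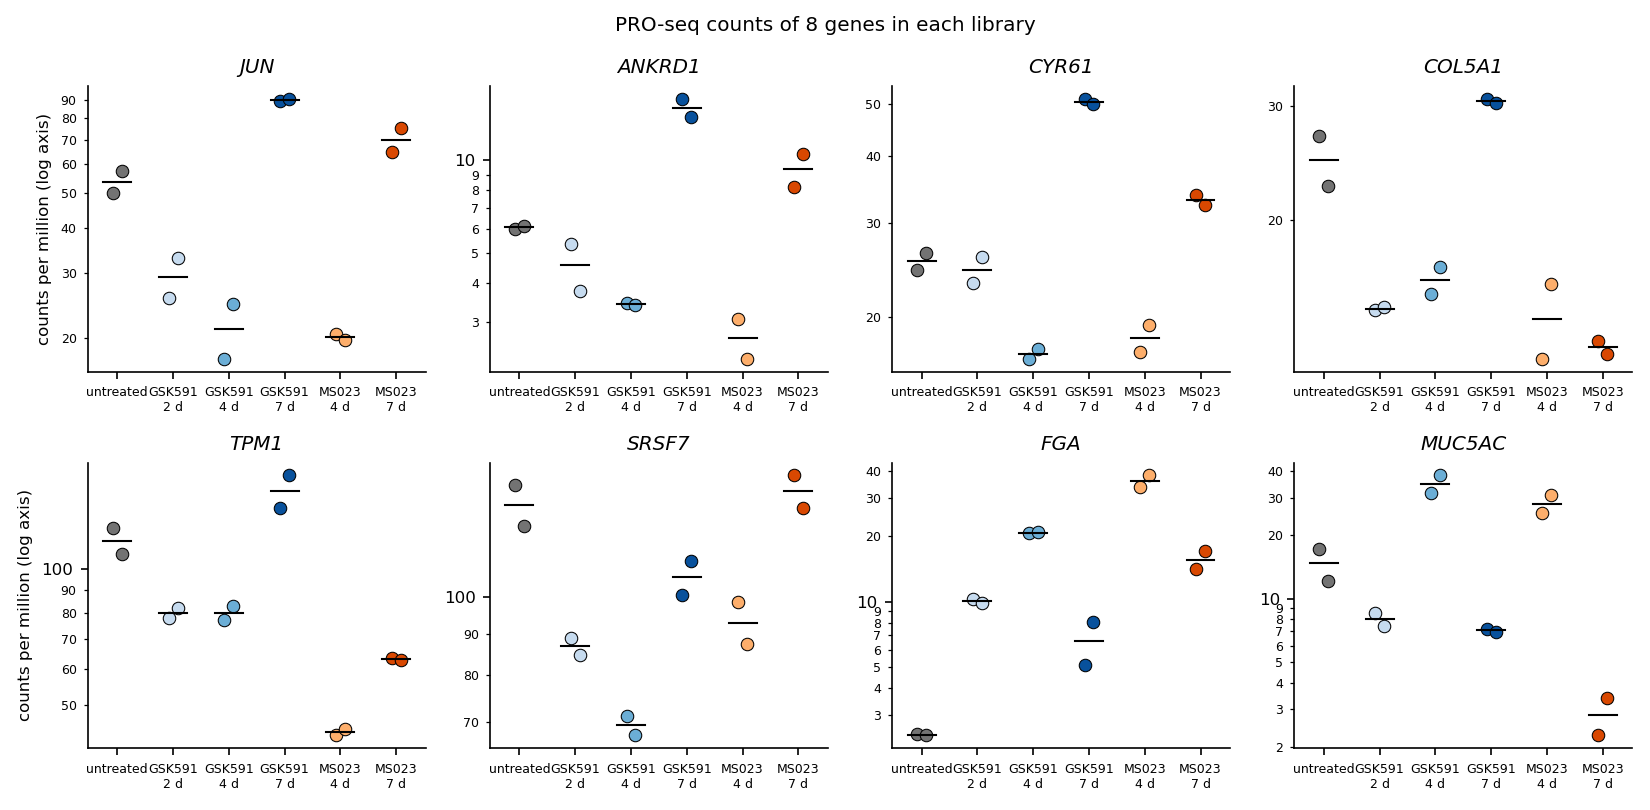
Expression in CPM (log axis) of 8 genes in each library of 6 groups; points are libraries and lines are means of 2. JUN, ANKRD1, CYR61, COL5A1, TPM1 and SRSF7 lie higher in both 7 day GSK591 libraries than in both 4 day libraries, and FGA and MUC5AC lie lower.

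Genes driven by the co-activator YAP and its DNA-binding partners of the TEAD family gave some of the largest rises. YAP moves to the nucleus in cells that are spread or under tension and switches on secreted matricellular proteins and cytoskeletal regulators. Of 24 tested list members, 8 rose, 1 fell and 15 were not called, which is 37.5% called beside 8.29% of all genes. The median change was 0.35, or -0.09 with total counts as the only scaling against -0.44 for all genes. ANKRD1, a muscle ankyrin-repeat regulator and a standard YAP reporter gene, was at 3.46 and 3.41 CPM at 4 days and 15.8 and 13.8 CPM at 7 days (2.11 ± 0.24, adjusted p = 1.11e-07). CYR61, a matricellular protein also called CCN1, went from 16.7 and 17.4 to 51.1 and 50.0 CPM (1.57 ± 0.12, adjusted p = 1.79e-13). CTGF, its relative also called CCN2, went from 7.78 and 8.42 to 22.1 and 23.9 CPM (1.50 ± 0.16). FJX1, another established target, went from 13.1 and 12.7 to 28.9 and 25.9 CPM (1.09 ± 0.14). At 4 days ANKRD1, CYR61 and FJX1 lay below the untreated libraries, which held 6.01 and 6.15, 24.5 and 26.4 and 21.8 and 22.6 CPM, and at 7 days above them. CTGF at 4 days, within the untreated range of 7.56 and 11.4 CPM, was the exception, and its exons overlap an opposite-strand gene. The member that fell was F3, tissue factor, by 0.91 on the log2 scale. Leaving out any of the 4 libraries gave 7 or 8 rises, DESeq2 called 8, and total counts as the only scaling gave 5 rises and 1 fall.

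The 250 bases upstream of the start of 4 genes that rose are shown because they hold the sequence letters linked to these factors. The sequences are from the RefSeq promoter table on GRCh38.p14, 5′ to 3′ on the gene's strand. GGAATG, the TEAD site, was searched on both strands, and capitals mark it in CTGF (chr6:131951373-131951622, minus strand) and ANKRD1 (chr10:90921088-90921337, minus strand). The CArG box bound by serum response factor was searched by its consensus on both strands, and capitals mark it in SRF (chr6:43171019-43171268, plus strand) and ACTG1 (chr17:81512800-81513049, minus strand).
CTGF: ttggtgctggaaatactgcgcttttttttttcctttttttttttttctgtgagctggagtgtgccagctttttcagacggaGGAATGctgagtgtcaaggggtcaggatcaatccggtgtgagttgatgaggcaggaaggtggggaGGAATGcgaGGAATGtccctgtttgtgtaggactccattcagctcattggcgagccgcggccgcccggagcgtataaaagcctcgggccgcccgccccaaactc
ANKRD1: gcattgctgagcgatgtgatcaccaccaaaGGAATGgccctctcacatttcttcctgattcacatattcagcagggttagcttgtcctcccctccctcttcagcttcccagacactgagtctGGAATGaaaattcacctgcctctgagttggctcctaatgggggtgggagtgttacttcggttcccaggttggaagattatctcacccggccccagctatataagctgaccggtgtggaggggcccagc
SRF: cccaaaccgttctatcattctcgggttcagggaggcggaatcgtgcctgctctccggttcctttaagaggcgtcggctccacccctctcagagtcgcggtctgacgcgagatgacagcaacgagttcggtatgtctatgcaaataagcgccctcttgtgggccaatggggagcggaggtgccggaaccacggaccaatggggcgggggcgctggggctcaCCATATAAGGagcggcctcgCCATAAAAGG
ACTG1: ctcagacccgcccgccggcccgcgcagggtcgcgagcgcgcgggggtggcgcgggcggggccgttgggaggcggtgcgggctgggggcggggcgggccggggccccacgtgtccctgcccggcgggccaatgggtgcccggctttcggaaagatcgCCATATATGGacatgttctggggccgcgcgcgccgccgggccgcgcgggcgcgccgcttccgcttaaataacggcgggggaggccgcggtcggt
The CTGF window held 3 matches to GGAATG, ANKRD1 held 2, SRF held 2 CArG boxes and ACTG1 held 1. GGAATG can begin on the last bases of a CArG box, but none of these 4 windows held both. With 1 promoter per gene, GGAATG was present in 3 of 7 matched promoters of YAP and TEAD targets that rose, in 5 of 19 over all tested members, and in 11.9% of 35116 promoters. CArG boxes were present in 6 of 12 matched promoters of actin and SRF genes that rose, in 6 of 24 over all tested members, and in 1.16% of all promoters. The shares of all promoters include several promoters for some genes, so they are not a like measure beside the list counts. Further promoters of list genes were not counted. A match describes the letters only.

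Genes of the actin cytoskeleton, many of them targets of serum response factor (SRF), gave 13 rises and 1 fall among 29 tested, and 15 were not called (48.3% called beside 8.29% of all genes). Their median change was 0.43, with 26 of 29 above 0, and 0.00 with total counts as the only scaling against -0.44 for all genes. TPM1, tropomyosin, which lines actin filaments, was at 77.0 and 83.0 CPM at 4 days and 136 and 161 CPM at 7 days (0.89 ± 0.12, adjusted p = 9.15e-07). The TPM1 groups did not overlap, and untreated cells lay between them at 123 and 108 CPM. TAGLN2, transgelin 2, went from 19.8 and 21.6 to 31.6 and 34.6 CPM (0.68 ± 0.13). ACTN1, the actin cross-linker alpha-actinin, went from 45.6 and 53.4 to 73.1 and 72.9 CPM (0.56 ± 0.11). ACTG1, cytoplasmic gamma actin, went from 164 and 195 to 236 and 275 CPM (0.51 ± 0.10). SRF itself rose by 0.58 on the log2 scale (adjusted p = 0.0205), and the filamin gene FLNC had the largest change of the list at 1.41. CNN3 fell by 0.58. TPM1, ACTN1, FLNC, CNN2 and ZYX overlap exons of other genes. The count of rises is sensitive to the libraries and the test. It was 3 without replicate 1 of the 4 day group, 7 without replicate 2, 7 without replicate 1 of the 7 day group and 4 without replicate 2; DESeq2 called 5. With no filter on low counts 9 rose, with total nuclear counts 6 rose and 1 fell, and with total counts as the only scaling 0 rose and 1 fell.

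Extracellular matrix and adhesion genes gave 10 rises and 0 falls among 39 tested, which is 25.6% called beside 8.29% of all genes. Their median change was 0.41, or -0.04 with total counts as the only scaling. COL5A1, a fibrillar collagen chain, went from 15.4 and 16.9 to 30.8 and 30.4 CPM (0.92 ± 0.14, adjusted p = 8.52e-06), beside 27.0 and 22.6 CPM in untreated cells. COL7A1, the anchoring fibril collagen, went from 50.5 and 49.6 to 79.4 and 84.7 CPM (0.71 ± 0.12). TIMP3, a metalloproteinase inhibitor, had few counts at 4 days with 0.288 and 0.501 CPM and reached 4.18 and 3.75 CPM at 7 days. COL7A1 overlaps exons of another gene. Leaving out any of the 4 libraries gave 8 or 9 rises and total nuclear counts 9, but total counts as the only scaling gave 2 rises and 1 fall. Under MS023 the change from 4 to 7 days was -0.14 for COL5A1.

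Immediate early genes and AP-1 subunits split in both directions. These are genes that growth factors and stress switch on without new protein synthesis. Among 34 tested, 9 rose and 4 fell, 38.2% beside 8.29% of all genes. The median was 0.18, or -0.28 with total counts as the only scaling. Beside JUN, the AP-1 subunit FOSL2 went from 64.9 and 77.0 to 118 and 120.1 CPM (0.75 ± 0.11) and the zinc-finger factor KLF6 from 32.0 and 33.1 to 58.0 and 56.3 CPM (0.81 ± 0.11). EGR1 rose by 1.29 and JUND by 0.63 on the log2 scale. In the other direction, the orphan receptor gene NR4A2 went from 25.9 and 25.1 to 14.1 and 10.2 CPM (-1.06 ± 0.17), and NR4A1, KLF10 and JUNB fell by 0.68, 0.57 and 0.53. NR4A1 and JUNB overlap exons of other genes. Within the JUN family, JUN and JUND rose while JUNB fell. Leaving out a library gave 7 to 9 rises and 1 to 3 falls in the list, and total counts as the only scaling gave 1 rise and 5 falls.

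Among 79 ribosomal protein genes tested, 14 rose, 1 fell (RPS20) and 64 were not called, while total nuclear counts gave 3 rises and 3 falls and total counts as the only scaling 0 rises and 10 falls. The 15 calls are 19% of the list, beside 8.29% of all genes. The changes were small, with 62 of 79 above 0. The median change was 0.19, or -0.27 with total counts as the only scaling. RPS26 went from 8.36 and 6.22 to 14.1 and 17.8 CPM (1.12 ± 0.19), RPS12 from 9.51 and 8.52 to 15.8 and 16.5 CPM (0.84 ± 0.16) and RPL9 from 10.4 and 10.2 to 16.6 and 17.1 CPM (0.71 ± 0.15). RPS16, the most deeply counted of these 4 with 69.0 and 69.5 CPM at 4 days and 86.7 and 98.4 CPM at 7 days, rose by 0.42 ± 0.10; with total counts as the only scaling its change was -0.04. In each of these 4 genes untreated cells lay above the 4 day libraries (126 and 129 CPM for RPS16). Leaving out a library gave 3 to 8 rises, and DESeq2 gave 7. Many ribosomal protein genes have processed pseudogenes that can take or lend counts, so single values are uncertain, and RPL9 and RPS20 overlap exons of other genes. Processed pseudogenes as a class were called in 1.57% of 1591 tested.

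Genes that host small nucleolar RNAs in their introns, which like ribosomal protein genes carry terminal oligopyrimidine starts, gave 7 rises and 1 fall among 22, 36.4% beside 8.29% of all genes (median 0.23, -0.22 with total counts as the only scaling). GAS5 went from 44.1 and 45.6 to 66.6 and 70.2 CPM (0.61 ± 0.11) and SNHG5 from 15.5 and 15.6 to 26.7 and 24.3 CPM (0.71 ± 0.14). SNHG9 and ZFAS1 rose by 0.94 ± 0.22 and 0.55 ± 0.14. GAS5, SNHG5, SNHG9 and ZFAS1 overlap exons of other genes. Leaving out a library gave 3 to 5 rises, total nuclear counts 3 rises and 2 falls, and total counts as the only scaling 0 rises and 3 falls. The 47 tested genes of ribosome biogenesis had a median of -0.01, with 0 rises and 1 fall, TAF1B (2.13% beside 8.29% of all genes).

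Mitochondrially encoded genes, transcribed by a separate polymerase, gave 6 rises and 0 falls among 15 (40% beside 8.29% of all genes), with a median of 0.96 (0.47 with total counts as the only scaling). MT-CO1, a core subunit of cytochrome oxidase, went from 37490 and 43260 to 70980 and 111800 CPM (1.18 ± 0.26). The 7 day replicates differed widely for it, and without replicate 2 of the 7 day group 0 of 15 were called and the median fell to 0.32. Without replicate 1 of that group 10 were called, without replicate 1 of the 4 day group 1 and without its replicate 2, 2. With no filter on low counts 2 were called. The mitochondrial share of all counts, given above for each library, moves with these genes, and its part in the other results was not tested beyond the fit that left out both these and the ribosomal RNA genes, which called 1898 genes, 1869 of them among the 1901.

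Counts over the genes of the U1 and U2 snRNAs were lower in both 7 day libraries. U1 pairs with the start of an intron and U2 with its branch point, and PRMT5 methylates Sm proteins that bind both. Each RNA has many near-identical gene copies, so counts of single copies are uncertain and sums over a family are given. RNU1-1 (chr1:16514122-16514285, minus strand) and RNU2-1 (chr17:43233787-43233977, minus strand) are shown as the representatives, from GENCODE 29 transcripts on GRCh38, because the sequence was identical in 8 of 27 tested U1 genes and 11 of 14 tested U2 genes. Capitals mark the site that the Sm ring binds.
RNU1-1: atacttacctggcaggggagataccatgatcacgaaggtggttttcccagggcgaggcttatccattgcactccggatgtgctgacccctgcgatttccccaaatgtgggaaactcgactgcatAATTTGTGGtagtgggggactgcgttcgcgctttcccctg
RNU2-1: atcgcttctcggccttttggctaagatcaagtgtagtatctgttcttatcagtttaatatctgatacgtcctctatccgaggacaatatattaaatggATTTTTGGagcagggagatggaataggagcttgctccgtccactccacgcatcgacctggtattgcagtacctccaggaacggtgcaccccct
The marked letters were present in 22 of the 27 U1 genes and 13 of the 14 U2 genes.

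Over all 62 snRNA genes tested, 26 fell and 0 rose, which is 41.9% called beside 8.29% of all genes, and 56 of 62 were below 0. Most of these falls were copies of U1 or U2. Near-identical copies are not independent genes, so this share can count the same signal many times. The median change was -1.03. U1 genes summed to 179 and 213 CPM at 4 days and to 103 and 95.7 CPM at 7 days, a ratio of means of 0.508. U2 genes summed to 295 and 299 CPM at 4 days and to 129 and 118 CPM at 7 days, a ratio of 0.417. In raw counts U2 went from 3071 and 2982 to 1112 and 882, while total counts were similar, so both 7 day libraries are lower with no scaling as well. At 2 days the sums were above untreated cells, with 478 and 444 CPM of U2 beside 292 and 296 CPM in untreated cells. The 4 libraries given Dex after 7 days of GSK591, which are not part of the contrast, held 124 to 174 CPM of U2, all below both 4 day libraries. For U1 these libraries held 118 to 161 CPM, below both 4 day libraries as well. By family, 12 of 27 U1 genes and 13 of 14 U2 genes fell. With 11 of the 14 U2 genes identical in sequence, the U2 falls here and below do not stand for separate results. Leaving out any of the 4 libraries gave 13 falls among the U2 genes each time, while the U1 falls were 10 without replicate 1 and 4 without replicate 2 of the 4 day group, and 7 and 4 without replicates 1 and 2 of the 7 day group. DESeq2 gave 10 and 13 falls and total counts as the only scaling 17 and 14, with 0 rises. RNU2-1 was at 22.5 and 23.7 CPM at 4 days and 10.1 and 9.38 CPM at 7 days (-1.24 ± 0.17, adjusted p = 7.02e-07), and RNU1-1 at 28.2 and 32.2 and 15.3 and 12.9 CPM (-1.09 ± 0.15). Under MS023 the median of the 62 genes was -0.40, with 14 falls and 1 rise, and U2 summed to 279 and 305 CPM at 4 days and 189 and 166 CPM at 7 days. The difference between the inhibitors was tested gene by gene. With edgeR 0 of the 62 passed (18 at an unadjusted p under 0.05, beside 2046 of all 22919 genes) and with DESeq2 0.

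**Figure D2:**
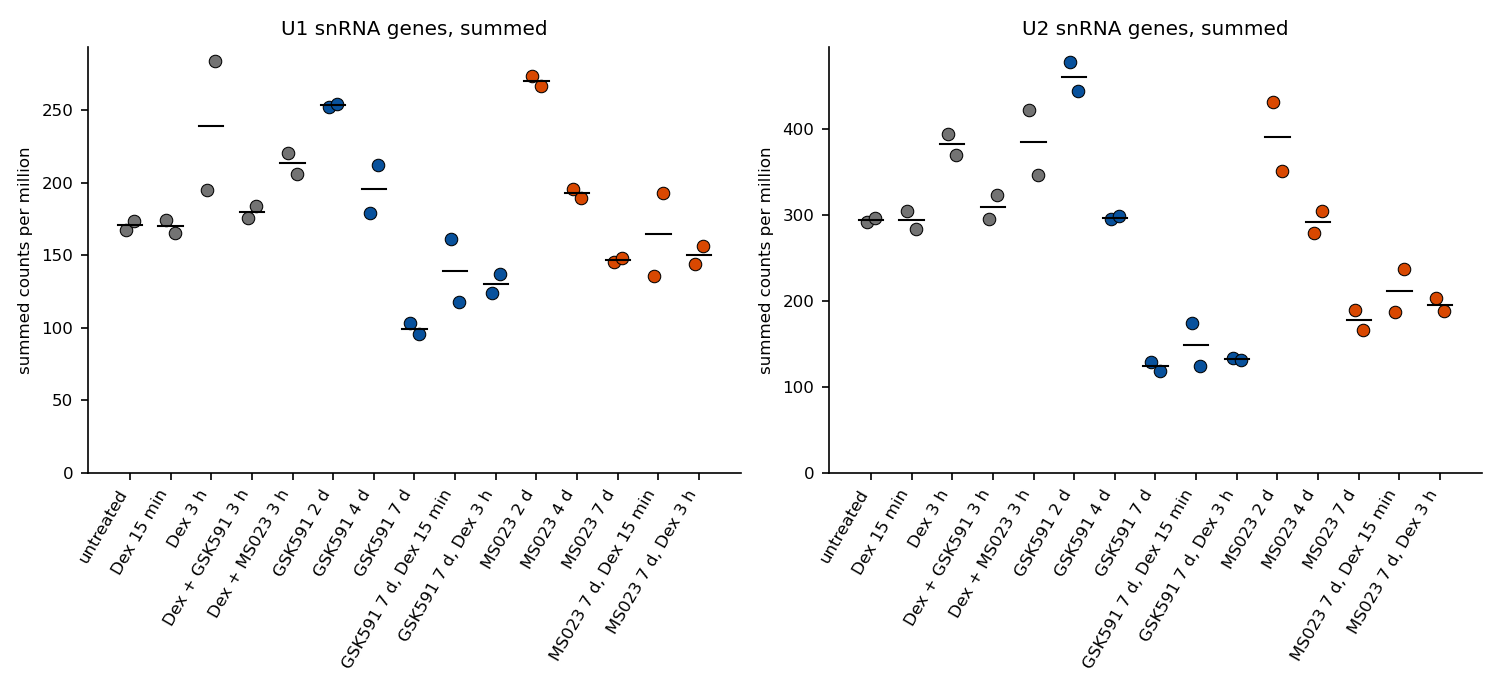
Summed CPM of all 148 U1 genes and 92 U2 genes counted, tested or not, in all 30 libraries. Points are libraries, lines are means of 2, and the axes start at 0. The 2 GSK591 libraries at 7 days hold 118 and 129 CPM of U2, below the 295 and 299 CPM of the 4 day libraries.

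The protein components of the splicing machinery were described by 3 lists. Of 43 genes for Sm, LSm and snRNP assembly proteins, 1 fell (LSM5, 16.7 and 18.4 to 12.8 and 8.84 CPM) and 0 rose, 2.33% beside 8.29% of all genes, with a median of -0.16. Total nuclear counts gave 4 falls and total counts as the only scaling 12. SNRPB, the PRMT5 substrate, was at 15.8 and 15.6 CPM at 4 days and 11.2 and 14.9 CPM at 7 days (-0.28 ± 0.16, adjusted p = 0.322), and its exons overlap another gene. Among 20 SR proteins and their kinases, SRSF7 and SRSF2 rose, which is 10% and near the 8.29% of all genes. SRSF7 went from 71.2 and 67.3 to 101 and 111 CPM (0.61 ± 0.11), still below the 138 and 122 CPM of untreated cells. With total counts as the only scaling 0 of the 20 rose and 5 fell. SRSF2 went from 5.47 and 4.61 to 7.91 and 10.8 CPM (0.88 ± 0.21); its exons overlap other genes. Among 30 hnRNP and related RNA-binding proteins, RBM3, G3BP1 and HNRNPA1 rose, by 0.60 ± 0.12, 0.57 ± 0.13 and 0.33 ± 0.10; HNRNPA1 was -0.11 with total counts as the only scaling. These 3 are also 10% of their list, each fit that left out 1 library called 1 of the 30, and RBM3 and G3BP1 overlap exons of other genes. The list's median was 0.03 between 4 and 7 days and -0.66 at 4 days against untreated cells.

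Genes of the methyltransferases themselves were not called. PRMT5 was at 6.63 and 5.72 CPM at 4 days and 7.56 and 8.98 CPM at 7 days (0.41 ± 0.20, adjusted p = 0.229), beside 7.90 and 8.77 CPM in untreated cells. PRMT1 was at 35.2 and 35.4 and 37.8 and 41.3 CPM (0.16 ± 0.11), and WDR77 at 0.864 and 1.60 and 2.09 and 1.88 CPM. Of the 12 methyltransferase and partner genes tested, 0 passed and 4 had an unadjusted p under 0.05 with edgeR. Over all 22919 genes, 4900 had such a p. Likewise 0 of 33 genes of polymerase pausing and elongation passed (5 at an unadjusted p under 0.05, edgeR), and DESeq2 also called 0 in both lists. With total counts as the only scaling 5 of the 12 and 8 of the 33 fell. GSK591 acts on the enzyme, so these values describe transcription of its gene and not inhibition. PRMT5, PRMT1 and WDR77 overlap exons of other genes. Of 12 polymerase II subunit genes, POLR2H and POLR2D fell by 0.60 and 0.55, which is 16.7% beside 8.29% of all genes. DESeq2 called 1 fall among them, and POLR2D overlaps exons of other genes.

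Fibrinogen and mucin genes were among the largest falls. The 3 fibrinogen chains are normally secreted by liver and are made by A549 cells. FGA was at 20.7 and 20.9 CPM at 4 days and 5.12 and 8.04 CPM at 7 days (-1.68 ± 0.17, adjusted p = 1.93e-09). Untreated cells had 2.45 and 2.42 CPM, the 2 day libraries 10.2 and 9.88 CPM, and the libraries with 15 min of Dex after 7 days 17.1 and 17.0 CPM. FGB went from 2.98 and 3.91 to 0.581 and 0.670 CPM and FGG from 2.69 and 3.01 to 0.233 and 0.804 CPM, so all 3 chains were called lower. In the list, 3 fell and 2 rose (27.8% beside 8.29% of all genes), and without 1 library in turn 2 fell and 0 or 1 rose. The list of 18 acute phase and complement genes was not uniform, since C3 rose by 0.78 and LCN2, lipocalin 2, went from 0.768 and 0.201 to 2.09 and 2.55 CPM.

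MUC5AC, the main gel-forming airway mucin, was at 31.5 and 38.1 CPM at 4 days and 7.21 and 6.97 CPM at 7 days (-2.29 ± 0.52, adjusted p = 0.0117). Its 7 day libraries lay below untreated cells (17.2 and 12.1 CPM), and its 4 day libraries above them. Of 34 secretory and lung epithelial genes, 8 fell and 7 rose, which is 44.1% beside 8.29% of all genes. With 1 library left out there were 3 to 6 falls and 4 or 5 rises, DESeq2 gave 6 and 4, and total counts as the only scaling 11 and 3. The other falls were MUC5B (-1.04), the goblet cell factors SPDEF (-1.57) and FOXA3 (-1.38), the mucin-folding enzyme AGR2 (-0.86), KRT81, HNF4A (-0.68) and FOXA2 (-0.43). MUC5B and FOXA2 overlap exons of other genes. KRT81, a hair keratin, went from 84.3 and 102 to 54.1 and 54.0 CPM (-0.79 ± 0.11). Rises included KRT19 (16.1 and 13.3 to 33.8 and 32.2 CPM), KRT80 (7.39 and 9.33 to 18.6 and 21.3 CPM) and CAV1, the caveolar coat protein (22.2 and 23.0 to 42.5 and 40.3 CPM). FCGBP, a mucus-associated protein outside the list, went from 9.31 and 12.2 to 4.07 and 4.02 CPM (-1.41 ± 0.29).

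The remaining large falls were metabolic and regulatory genes. HILPDA, a lipid droplet protein, went from 35.6 and 35.5 to 12.9 and 15.1 CPM (-1.35 ± 0.14, adjusted p = 2.53e-09). PDK4, which restrains pyruvate oxidation, went from 14.5 and 15.5 to 5.23 and 6.43 CPM (-1.37 ± 0.19). HES7, a Notch-related repressor, went from 12.9 and 9.73 to 3.25 and 4.96 CPM. CPLX2, a complexin of vesicle fusion, went from 81.6 and 105 to 35.0 and 39.1 CPM (-1.33 ± 0.13). PLGRKT, a plasminogen receptor, went from 17.1 and 15.2 to 7.91 and 4.15 CPM. DNAJC28 and TTC4 fell by 1.33 and 1.44 on the log2 scale. In each of these genes both 7 day libraries lay below both 4 day libraries, which the naming rule requires. With 15 min of Dex after 7 days of GSK591, PDK4 was at 18.9 and 14.7 CPM, not below both 4 day libraries. HILPDA was at 26.4 and 17.6 CPM there and CPLX2 at 52.7 and 57.8 CPM, between their 4 and 7 day libraries. HES7, PLGRKT, DNAJC28 and TTC4 lay below both 4 day libraries there. HILPDA and TTC4 overlap exons of other genes. Among other gene types the largest falls were 2 further U2 copies (-1.55 and -1.50) and AC009303.4 (-1.54 ± 0.32).

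Cell cycle genes had lower medians than untreated cells at both times. DNA replication genes had a median of -1.15 at 4 days and -1.20 at 7 days against untreated cells. Between 4 and 7 days their median was -0.04, with 1 rise and 1 fall among 48 (4.17% beside 8.29% of all genes), or 0 and 5 with total counts as the only scaling. CCNE1, the S-phase cyclin E1, rose from 2.11 and 2.81 to 6.39 and 4.02 CPM, beside 5.89 and 4.74 CPM in untreated cells. CDC6, a licensing factor, fell from 24.9 and 25.5 to 16.7 and 20.0 CPM, beside 47.4 and 37.4 CPM. Mitotic genes had medians of -1.29 and -1.52 against untreated cells and 1 rise (CDC20) and 1 fall (NUSAP1, whose exons overlap another gene) among 54, or 3.70%. MKI67, the proliferation marker, was at 80.8 and 68.4 CPM in untreated cells. With GSK591 it stood at 53.9 and 41.8 CPM after 2 days, 29.2 and 19.2 CPM after 4 and 16.3 and 17.6 CPM after 7 (-0.52 ± 0.47 from 4 to 7 days, adjusted p = 0.589). Homologous recombination and Fanconi genes gave 1 fall among 36, or 2.78%, which was RAD50, a gene that overlaps others. Replication-dependent histone genes gave 5 falls and 1 rise among 56 (10.7%), or 1 to 3 falls and 0 rises when a library was left out. HIST1H4I, for example, went from 10.9 and 9.23 to 4.42 and 6.57 CPM, and HIST1H4J and HIST1H4K share near-identical sequence, so their counts are uncertain.

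Among p53 targets, 5 rose and 1 fell of 30, 20% beside 8.29% of all genes (median 0.10, -0.34 with total counts as the only scaling). GADD45A, a growth arrest gene, went from 24.5 and 34.0 to 48.4 and 58.3 CPM (0.87 ± 0.13, adjusted p = 8.40e-06). MDM2, the ubiquitin ligase of p53, went from 79.7 and 84.8 to 112 and 147 CPM (0.66 ± 0.11), beside 43.5 and 42.3 CPM untreated and 72.3 and 71.4 CPM at 2 days. PHLDA3, which restrains AKT, and FAS, a death receptor, rose by 0.56 ± 0.12 and 0.85 ± 0.27. CDKN1A, the cell cycle inhibitor p21, was at 23.1 and 24.9 CPM at 4 days and 32.9 and 24.0 CPM at 7 days and was not called (0.25 ± 0.14, adjusted p = 0.296). All 4 libraries were above the 10.3 and 11.1 CPM of untreated cells. MDM2, PHLDA3, FAS and CDKN1A overlap exons of other genes. The fall was SESN2, at -0.44. Leaving out a library gave 3 to 6 rises and 0 falls, DESeq2 3 rises and total counts as the only scaling 0 rises and 5 falls.

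Inflammatory genes gave 5 rises and 2 falls among 29, which is 24.1% called beside 8.29% of all genes. The neutrophil chemokine gene CXCL1 went from 11.7 and 12.2 to 22.7 and 25.2 CPM (1.00 ± 0.17), above the 4.89 and 6.15 CPM of untreated cells at both times, and CXCL8 rose by 1.37. CCL2, a monocyte chemokine, went from 2.40 and 2.51 to 5.93 and 6.57 CPM, beside 6.01 and 6.55 CPM in untreated cells. PTGS2, cyclooxygenase 2, fell from 9.80 and 13.2 to 7.09 and 5.09 CPM, and the NF-kB inhibitor NFKBIE fell from 20.6 and 15.5 to 8.84 and 11.1 CPM. Leaving out a library gave 2 or 3 rises and 1 fall in the inflammatory list, DESeq2 gave 2 of each, and total counts as the only scaling gave 0 rises and 4 falls. Among 25 glucocorticoid-induced genes, SGK1 and CRISPLD2 rose, which at 8% is no more than the 8.29% of all genes. Without replicate 1 of the 4 day group 0 rose and 1 fell, and total counts as the only scaling gave 1 rise and 6 falls. CRISPLD2 overlaps exons of other genes. The glucocorticoid receptor gene NR3C1 was at 41.5 and 48.1 and 50.2 and 49.2 CPM and was not called (adjusted p = 0.476).

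Most of the stress and metabolic lists, but not the sterol and NRF2 lists, had called members in both directions. Of 29 integrated stress response genes, 3 rose and 3 fell, 20.7% beside 8.29% of all genes. STC2, a secreted glycoprotein, went from 8.93 and 5.82 to 25.7 and 22.6 CPM (1.71 ± 0.16, adjusted p = 3.28e-11), while untreated cells had 21.9 and 23.3 CPM. PPP1R15A and ATF4 rose by 0.49 ± 0.12 and 0.38 ± 0.10, ATF4 being -0.07 with total counts as the only scaling, and DDIT4, an mTOR inhibitor, fell from 196 and 202 to 127 and 132 CPM. Of 36 sterol and fatty acid genes, 3 rose and 0 fell (8.33%, near the 8.29% of all genes). ABCA1, the cholesterol exporter, rose from 9.70 and 10.8 to 17.6 and 21.6 CPM, and FASN, the fatty acid synthase, rose by 0.36 ± 0.11 (-0.09 with total counts as the only scaling). Of 38 hypoxia and glycolysis genes, 4 rose and 3 fell (18.4%): the vasodilator peptide gene ADM went from 90.1 and 104 to 144 and 188 CPM, and CCNG2 and CA12 fell by 0.84 and 0.56. Of 30 NRF2 targets only AKR1C3 was called (3.33%), falling by 0.54. That list is not quiet under each setting. The fit of untreated and inhibitor-alone groups gave 1 rise and 9 falls in it, with 2837 calls over all genes. Only the groups compared gave 1 rise and 4 falls, with 2925 calls over all genes. Lysosome and autophagy genes gave 2 rises and 2 falls among 31 (12.9%), with CTSB among the rises and ULK1 among the falls. In the MYC and MAX network MLXIPL and MYCL fell, by 1.16 and 0.91, and MNT rose by 0.51 ± 0.13, of 13 tested (23.1%). DDIT4, MYCL and MNT overlap exons of other genes. Leaving out a library gave 1 to 3 rises and 1 fall in the stress response list, 0 to 2 rises in the sterol list, 1 or 2 rises and 1 to 3 falls in the hypoxia list, 0 or 1 fall in the NRF2 list, 1 or 2 rises and 0 or 1 fall in the lysosome list, and 0 or 1 rise and 1 fall in the MYC list. With total counts as the only scaling these 6 lists had 0 or 1 rises and 3 to 14 falls each.

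**Figure D3:**
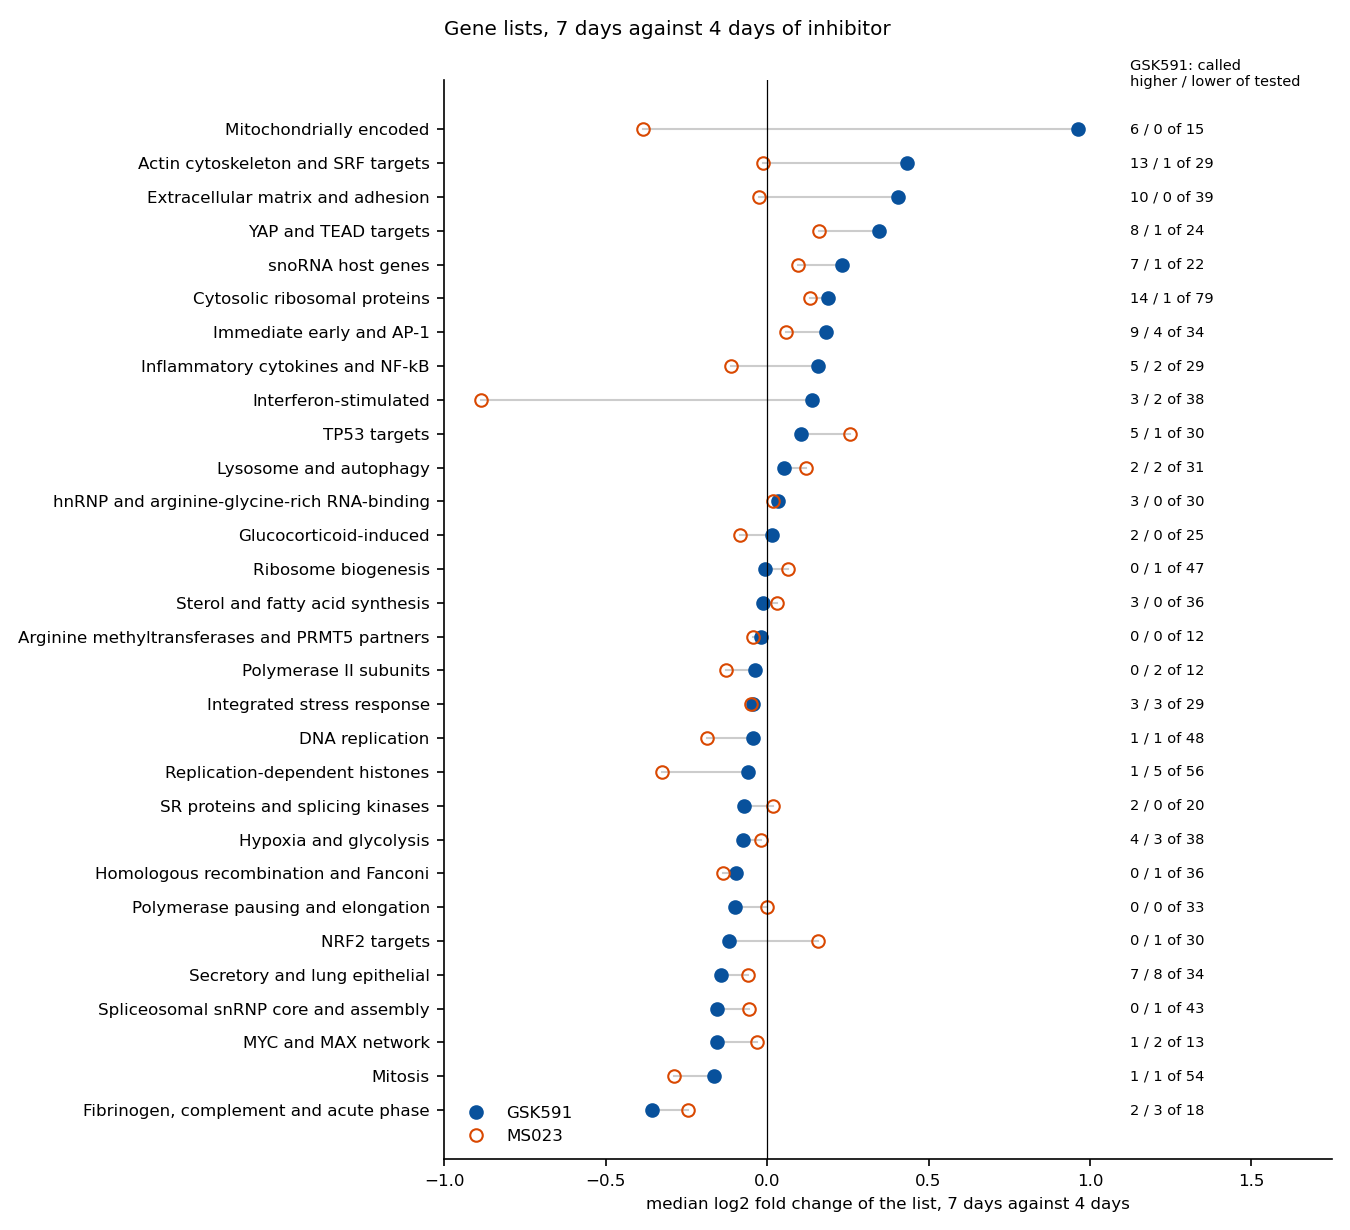
Median log2 fold change from 4 to 7 days over the tested members of 30 gene lists, for GSK591 (filled) and MS023 (open); the numbers give the GSK591 members called higher, lower and tested. Actin, matrix and YAP lists lie at 0.35 to 0.43 for GSK591; with total counts as the only scaling the median of all genes shifts to -0.44, which moves the matrix and YAP lists below 0.

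The change from 4 to 7 days was set against that under MS023, which shares no library with it. Under MS023, 2073 genes were called, 9.04% of those tested, with 981 rises (4.28%) and 1092 falls (4.76%). Of the 1901 genes called with GSK591, 1686 (88.7%) had the same sign under MS023, beside 66.0% of all genes tested. These were 784 of 928 rises and 902 of 973 falls. The genes called under both numbered 717, which is 37.7% of the GSK591 calls and 34.6% of the MS023 calls, and 707 of them had the same sign. The median MS023 change was 0.41 among the GSK591 rises and -0.41 among the falls. Across the 11070 genes that averaged 5 CPM or more in the 8 libraries the changes had a Pearson r of 0.586; genes are not independent replicates, and all libraries share the scaling. JUN (1.80), ANKRD1 (1.80), FGA (-1.20) and MUC5AC (-3.31) moved under MS023 in the direction they moved under GSK591. In MS023 libraries JUN was at 20.5 and 19.7 CPM at 4 days and 64.6 and 75.2 CPM at 7 days, and FGA at 33.5 and 38.1 and 14.1 and 17.1 CPM. With 1 untreated group for every time, a change shared by both inhibitors cannot be told apart from one with time in culture.

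**Figure D4:**
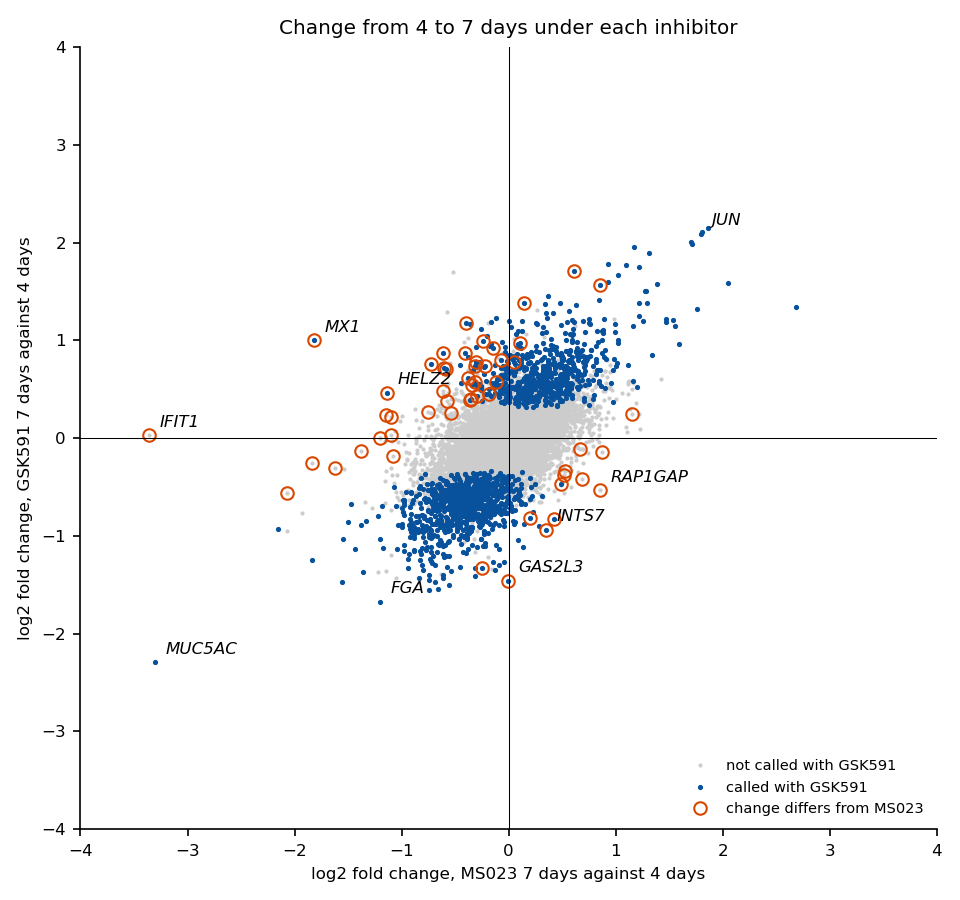
Log2 fold change from 4 to 7 days under GSK591 (vertical) against MS023 (horizontal) for the 11070 genes that averaged 5 CPM or more; blue points are called with GSK591 and orange rings mark a tested difference between the inhibitors. Most called genes lie in the lower left or upper right (1686 of all 1901 share the sign), and IFIT1 and MX1 stand out at the left.

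The test of the difference itself called 64 genes, 0.279% of those tested, of which 49 (0.214%) changed more positively under GSK591 and 15 (0.0654%) more negatively. Of these, 39 were also called between 4 and 7 days of GSK591. At an unadjusted p under 0.05 there were 2046. Total counts as the only scaling gave 2010 calls, of which 0.398% were higher under GSK591, with a median of all genes of -0.72; total nuclear counts gave 56, of which 39.3% were higher, with a median of -0.14. The count was 30, 36, 49 and 31 without replicates 1 and 2 of the 4 day and of the 7 day GSK591 group, and 30 to 49 over all 8 libraries left out in turn. Of 38 interferon-stimulated genes tested, 8 had a higher change under GSK591 and 0 a lower one. Their median change was 0.14 under GSK591, with 3 rises and 2 falls (13.2% beside 8.29% of all genes), and -0.89 under MS023, with 22 falls. Those GSK591 calls were 0 or 1 in each direction when a library was left out. IFIT1, an interferon-induced RNA sensor, was at 1.73 and 2.81 and 2.33 and 2.28 CPM at 4 and 7 days of GSK591 and at 13.6 and 17.4 and 1.42 and 1.59 CPM at 4 and 7 days of MS023, a difference of changes of 3.39 ± 0.44 (adjusted p = 4.00e-06). The 4 day MS023 libraries were the high ones, and untreated cells had 1.33 and 1.41 CPM. MX1, an antiviral GTPase, was at 2.11 and 1.60 and 3.84 and 3.62 CPM with GSK591 and at 15.5 and 18.1 and 4.25 and 5.28 CPM with MS023 (2.81 ± 0.39). HELZ2, an interferon-responsive helicase, was at 12.5 and 10.7 and 13.2 and 19.0 CPM with GSK591 and at 74.9 and 75.1 and 32.9 and 35.2 CPM with MS023 (1.60 ± 0.19); its GSK591 change was 0.47 ± 0.15, or -0.01 with total counts as the only scaling. In the opposite direction, GAS2L3, a cytoskeletal linker, fell from 7.30 and 6.12 to 1.98 and 2.95 CPM with GSK591 and was at 7.82 and 6.91 and 7.79 and 6.88 CPM with MS023 (-1.45 ± 0.35). RAP1GAP, which turns off the GTPase RAP1, differed by -1.39 ± 0.27, and INTS7, an Integrator subunit, by -1.29 ± 0.27.

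Several structural genes that rose with GSK591 were among the 64. CYR61 rose under both inhibitors, and its rise was larger with GSK591 by 0.71 ± 0.17 (adjusted p = 0.0425). COL5A1 differed by 1.07 ± 0.20, with 12.2 and 15.9 and 13.0 and 12.4 CPM at 4 and 7 days of MS023. MX1 and GAS2L3 overlap exons of other genes. Of the actin list, CNN2 and ZYX passed; the list's median was 0.43 with GSK591 and -0.01 with MS023, and 2 of 29 members differed by the test. TPM1 did not pass (0.36 ± 0.17, adjusted p = 0.533). STC2 differed by 1.10 ± 0.20, CXCL1 by 1.24 ± 0.24 and CPLX2 by -1.08 ± 0.18, the last with 108 and 124 and 91.7 and 104 CPM in MS023 libraries. Mitochondrially encoded genes had a median of 0.96 with GSK591 and -0.38 with MS023. Of 15, 0 passed the test of the difference with edgeR and 2 with DESeq2. At an unadjusted p under 0.05 with edgeR there were 13, beside 2046 of all 22919 genes.

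The authors' deposited tables give log2 fold changes against untreated cells at each time. Which counts and settings gave them was not tested, so they may not be a like measure beside the values here. In the authors' deposited table ANKRD1 was at -0.81 at 4 days and 1.19 at 7 days, TPM1 at -0.47 and 0.32, FGA at 3.29 and 1.50, and MUC5AC at 1.21 and -0.62. Other genes named above moved little or the other way. In the authors' deposited table DNAJC28 was at 0.15 and 0.08, PLGRKT at -0.04 and -0.36, and CDC6, called lower here, at -2.21 and -1.87. The difference of the authors' deposited table values between 7 and 4 days had the same sign as the change reported here in 1216 of the 1445 called genes that the tables hold.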

How the data were processed

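PRO-seq counts of A549 cells were taken as the authors deposited them: whole-number counts for 58780 genes in 30 libraries, not normalised. The submitters' processing notes name featureCounts 2.0.1 (Subread) and hg38; the aligner, feature type and use of strand are not given in the sources used here. All gene identifiers match GENCODE 29, whose names are used (36049 genes are named in the deposited table). The authors' deposited tables carry the column names of DESeq2, per the file headers, and hold a mean signal per gene, log2 fold changes against untreated cells and p-values; their log2 values are quoted and come from another counting.

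Counts were tested with edgeR 4.0.16 (quasi-likelihood, robust, TMM scaling; R 4.3.3, limma 3.58.1). The 15 groups shared 1 fit (15 residual degrees of freedom), and filterByExpr (minimum count 10, minimum total 15) kept 22919 genes. P-values were adjusted by Benjamini-Hochberg over all of them, with a threshold of 0.05, in each of 3 comparisons: GSK591 at 7 against 4 days, MS023 at 7 against 4 days, and the difference of these changes. Each standard error was computed by dividing the log2 fold change by the root of the F statistic. The total count per library limits precision, and no molecular identifiers are mentioned.

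The comparison and the 30 gene lists were chosen with earlier results of these data known. Named genes are, among called genes that averaged 5 CPM or more and whose libraries did not overlap, the 10 largest rises and falls among protein-coding genes and the 3 largest of other types; up to 4 called members per list (2 where none was called); PRMT5, WDR77, PRMT1, SNRPB, CDKN1A, MDM2, MKI67 and NR3C1; and the 3 largest rises and falls of the difference from MS023. RNU1-1, RNU2-1, SRF, FLNC, CNN2, CNN3, ZYX, F3, EGR1, JUND, JUNB, NR4A1, KLF10, RPS20, C3, MUC5B, SPDEF, FOXA3, AGR2, HNF4A, FOXA2, SESN2 and CXCL8 fall outside this rule and were picked with their values in view. Alternatives were other scalings, no filter, DESeq2 1.42.0, fits of fewer groups, the replicate number as a block, a fit leaving out mitochondrial and rRNA genes, and leaving out each library. Scaling by total nuclear counts was added after seeing the data. Some genes that the rule names are not reported here.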

Additional observations from a re-analysis of the deposited data

Results flagged for a closer look

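The difference between the GSK591 and the MS023 change from 4 to 7 days passed the edgeR test in 64 genes. Among genes that averaged 5 CPM or more over the 8 libraries, the largest positive differences on the log2 scale were 3.39 for IFIT1 (adjusted p = 4.00e-06), 2.81 for MX1 (adjusted p = 1.48e-05) and 1.60 for HELZ2 (adjusted p = 2.70e-07). The largest negative differences were -1.45 for GAS2L3 (adjusted p = 0.0430), -1.39 for RAP1GAP (adjusted p = 0.00356) and -1.29 for INTS7 (adjusted p = 0.00906). Each was noted because the change under 1 inhibitor differed from that under the other by a test of the difference itself. GAS2L3 overlaps exons of another gene on its strand, and MX1 on the opposite strand.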

How the results depend on the processing

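Between 4 and 7 days of GSK591, 1901 genes were called. DESeq2 size factors gave 1928 (1866 shared), no filter on low counts 1672 (1556 shared), the fit with only untreated and inhibitor-alone groups 2837 (1884 shared) and total nuclear counts, a scaling chosen after seeing the data, 1995 (1507 shared, 26.8% of them rises). Larger moves came with total counts as the only scaling (3663, 1099 shared, 3.47% rises beside 48.8%), with only the groups compared (2925) and with DESeq2 (972, its adjusted p being NA for 5777 genes); the cause was not tested. The difference from MS023 gave 64 calls, and under the same 3 settings 2010, 276 and 40, with 278 in the fit of untreated and inhibitor-alone groups. Leaving out 1 library, which also lowers the number of samples, gave 675 to 1005 calls for the change and 30 to 49 for the difference. A lone remaining library is then assumed to vary like the other groups. Total counts as the only scaling turned the direction of HELZ2 (-0.007), HNRNPA1 (-0.105), RPS16 (-0.037), ATF4 (-0.072) and FASN (-0.088). The median of all genes moved to -0.443 there. Among the genes that the naming rule gives, no other setting turned a called gene. Genes picked outside the rule were not followed in this way. Of the 126 genes named for the change and 6 for the difference, 17 no longer passed with DESeq2 and 1 had an NA there, and 27 to 46 no longer passed when 1 GSK591 library was left out. With the replicate number as a block the counts were 1971 (1895 shared) and 77. The 132 gene results just counted stayed on their side of the threshold there. Of the 30 lists, the NRF2 targets went from 1 fall to 2 and the sterol genes from 0 falls to 1. Ribosomal protein genes went from 14 rises to 15 and the actin list from 13 rises to 14. The labels do not say whether the replicate numbers pair the samples. Deviations of equally numbered libraries at 4 and 7 days correlated at 0.0591 across genes, a value that cannot decide this. Nuclear counts of 2553476 to 3127194 per library limit what can be called for weakly transcribed genes.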
